A study of Homo sapiens with 4 samples.

Results

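The genes described here are 32 that build cholesterol and fatty acids or set the pace of that synthesis, chosen by name from the 39323 genes listed in each of the 4 RNA-seq libraries. They comprise 7 enzymes of the mevalonate pathway, 11 enzymes of the later sterol pathway, the cholesterol carrier STARD4, 8 genes of fatty acid synthesis and 5 regulators. All 32 passed the filter on low values, an average of 1 TPM or more across the libraries, which left 12985 tested genes. The question was how these genes responded to silencing of SKP2, and whether the genes usually assigned to the transcription factor SREBP2 (19 genes of cholesterol synthesis and transport) responded differently from those usually assigned to SREBP1 (8 genes of fatty acid synthesis).

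RD and JR1 are established lines of fusion-negative rhabdomyosarcoma, a childhood cancer whose cells resemble skeletal muscle precursors that do not complete differentiation, and according to the study both carry mutated p53. SKP2 is the subunit of an SCF ubiquitin ligase that selects proteins for degradation. Cells of each line were infected with a pLKO.1-puro lentivirus carrying either a non-targeting shRNA (shSCR, the samples labelled WT) or an shRNA directed at SKP2 (shSKP2, the samples labelled SKP2 knockdown), so the controls also carried a vector. Both conditions shared the line, the vector backbone and DMEM with fetal bovine serum, and each line and condition gave 1 library from a single shRNA. With 1 library per group, a difference within a line has no replicate check, error or p-value, and the only test below takes the lines as 2 pairs. TPM (a share of transcripts scaled to a fixed total, which accounts for transcript length) keeps no read counts, so the depth behind each value is unknown.

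Cells make cholesterol and fatty acids from acetyl-CoA. Cholesterol synthesis runs through mevalonate and squalene to lanosterol and then to cholesterol, whereas fatty acid synthesis runs through malonyl-CoA to palmitate, which is then elongated and desaturated. The transcription factors SREBP1 and SREBP2 are held in the endoplasmic reticulum by SCAP and INSIG proteins when sterols are plentiful, and are carried to the Golgi and cleaved when sterols run low, after which the released fragment activates the genes of both pathways, often together with the CCAAT-binding factor NF-Y or with SP1.

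SKP2 itself stood at 92.8 TPM in RD shSCR and 7.40 TPM in RD shSKP2, and at 46.5 and 2.72 TPM in the JR1 pair, so each library fitted its label. Of 6 myogenic markers, 5 were present at 1 TPM or more and MYF5 was listed at 0 in all 4 libraries, with summed levels of 401 and 569 TPM in RD shSCR and shSKP2 and of 550 and 777 TPM in JR1. The markers of lipid-making cell types were near absent, with a summed level of at most 1.36 TPM for 7 adipocyte markers and at most 1.72 TPM for 7 hepatocyte markers, and ADIPOQ and LEP listed at 0 in every library. Short structural RNA genes (small nuclear and nucleolar RNAs, 7SL, 7SK and the like, 1069 genes by symbol) took 58.6% and 69.1% of the TPM in RD shSCR and shSKP2, and 66.5% and 72.1% in JR1. TPM sums to a fixed total, and the median change of all tested genes lay below 0, at -0.27 in RD and -0.21 in JR1 on the log2 scale, and moved to 0.12 and 0.01 when those genes were removed and TPM rescaled. Changes below are given as log2 of the ratio of TPM + 1, shSKP2 over shSCR of the same line, and a gene is said to have fallen or risen where that change reached 1, that is 2-fold on this scale.

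The enzymes of both pathways were lower after SKP2 silencing in both lines, although PMVK in RD was not once short structural RNA genes were removed. In RD, 19 of the 32 genes fell and none rose, against 7.37% of all tested genes that fell and 1.08% that rose. In JR1, 14 of the 32 fell and none rose, against 9.05% and 1.78% of all tested genes. All 14 had also fallen in RD, against 4.79% of all tested genes that fell in both lines, and 5 more (FDFT1, SQLE, SREBF1, FASN and ACSS2) passed the limit in RD alone. The median change of the 32 genes was -1.09 in RD and -0.91 in JR1, beside the all-gene medians of -0.27 and -0.21. The genes summed to 2009 TPM in RD shSCR and 826 TPM in RD shSKP2, and to 1777 and 854 TPM in JR1. Of the TPM outside the short structural RNA genes, that was 0.485% and 0.267% in RD and 0.530% and 0.306% in JR1. Taken as 2 pairs, the lines also allowed a test with 1 residual degree of freedom, a limma fit of log2(TPM + 1) over all tested genes with the line as a block, which was added after the values of each line had been seen. At a Benjamini-Hochberg adjusted p under 0.05 it called 27 of the 32 members lower and none higher, against 26.6% of all tested genes called lower. With changes centred on the all-gene median it called 20 members and 13% of tested genes lower, and without short structural RNA genes 20 members and 9.26% of the genes then tested. The members had been chosen with earlier results of these data known, so these counts do not test an independent list. The 5 members not called on the deposited scale were PMVK and the regulators SREBF2, SCAP, INSIG1 and INSIG2, with limma adjusted p of 0.262, 0.0919, 0.0963, 0.183 and 0.993. SCD had the largest mean change over the lines, -2.44 (SE 0.14, limma adjusted p = 0.00060). The fit drew each gene's variance toward a trend over all tested genes, with 5.39 prior degrees of freedom beside the 1 residual. The block takes out the difference in level between the lines. The error behind these p-values thus comes mostly from how far the RD and JR1 changes differed, pooled over all tested genes. Less of it comes from that difference in the gene itself. It holds no spread between replicates within a line.

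In bulk RNA, fewer cells that express a gene and less RNA per cell cannot be told apart.

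Part of the size of these changes moved with the scale. After removal of the short structural RNA genes, 10 members fell in RD and 9 in JR1, against 3.46% and 7.49% of the genes then tested, and 29 of 32 were still lower in each line, with medians of -0.69 (RD) and -0.68 (JR1). The members then above 0 were PMVK (0.27), INSIG2 (0.13) and SCAP (0.02) in RD, and INSIG2 (0.43), INSIG1 (0.24) and SREBF2 (0.11) in JR1. Of the 14 that fell in both lines with TPM as deposited, HMGCS1, IDI1, DHCR7 and ELOVL6 then passed the limit in neither line. FADS1 then passed it in RD (-1.37) but not in JR1 (-0.82), and the 5 that had passed it in RD alone no longer did. Against the median of all tested genes, 30 of 32 lay below it in RD and 29 in JR1, and 19 and 15 were among the lowest 10% of all tested genes. A stricter minimum of 5 TPM left 30 members, of which 18 fell in RD and 13 in JR1, against 8.41% and 9.96% of genes at that level. At a lower limit of 1.5-fold, 28 members passed in RD and 24 in JR1, where 23.2% and 23.4% of all tested genes passed as well. Before any limit, 75.0% of all tested genes were below 0 in RD and 68.9% in JR1.

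**Figure D1:**
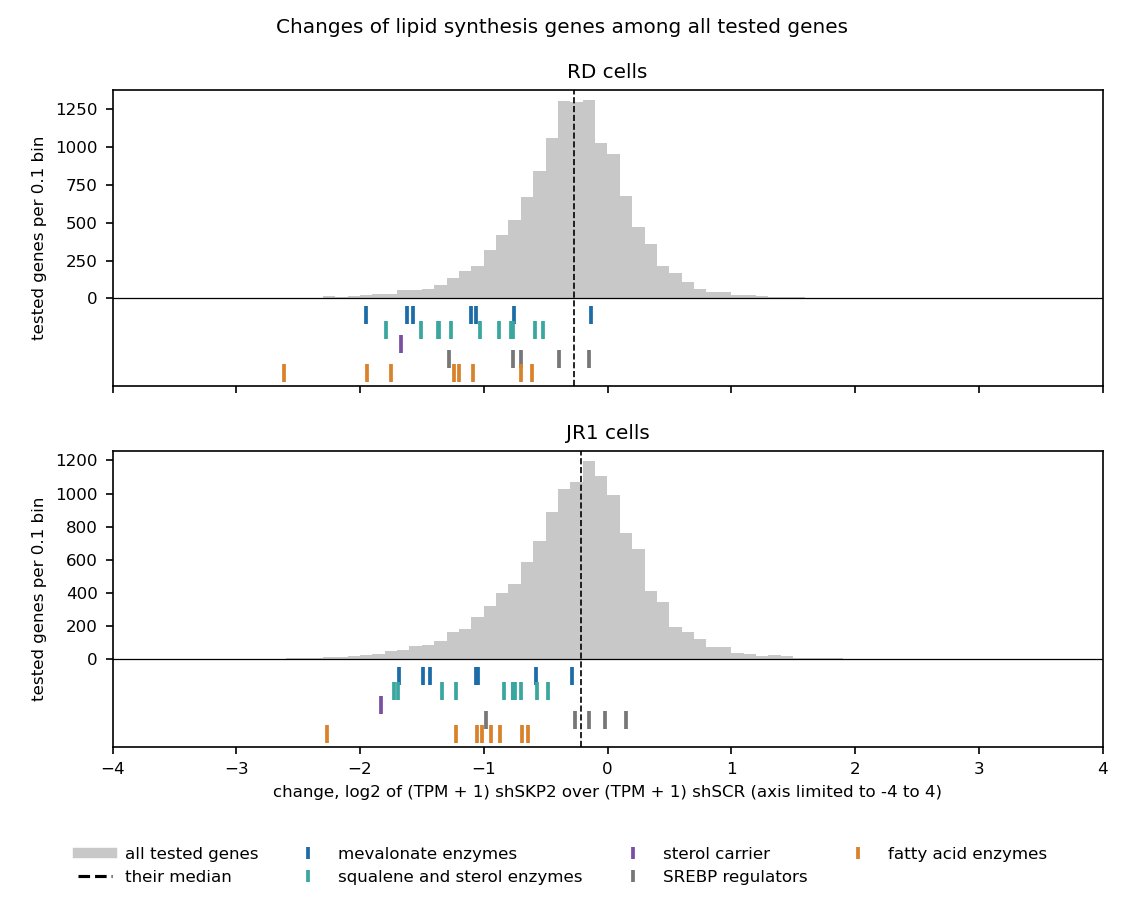
The plot sets the log2 change (shSKP2 over shSCR, TPM + 1) of each of the 32 members, as ticks coloured by role, under a histogram of the 12985 tested genes for either line, whose median is the dashed line. The members sit in the lower part of the distribution in both lines, with medians of -1.09 and -0.91 against -0.27 and -0.21 for all tested genes.

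Promoters of the members were read to see which sequence elements they share, because the choice of the genes did not use sequence. RefSeq windows on GRCh38.p14, which hold 250 bases upstream and 50 bases downstream of an annotated start, matched 28 of the 32 members (not ACAT2, FDFT1, SQLE and FASN). Each stretch printed here is the 200 bases before the start, 5′ to 3′ on the gene's own strand. FDPS, STARD4 and SCD are shown as enzymes or carriers that fell in both lines, and SREBF2 and INSIG1 as regulators that passed the limit in neither line. Capitals mark CCAAT on either strand (read as CCAAT or ATTGG) and, in SREBF2, the sterol regulatory motif TCACNCCAC.
FDPS, chr1:155308666-155308865, plus strand: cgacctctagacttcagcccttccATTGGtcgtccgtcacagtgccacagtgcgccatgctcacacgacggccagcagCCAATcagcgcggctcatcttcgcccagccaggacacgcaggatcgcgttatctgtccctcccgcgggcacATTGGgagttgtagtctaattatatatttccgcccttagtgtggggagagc
STARD4, chr5:111512536-111512735, minus strand: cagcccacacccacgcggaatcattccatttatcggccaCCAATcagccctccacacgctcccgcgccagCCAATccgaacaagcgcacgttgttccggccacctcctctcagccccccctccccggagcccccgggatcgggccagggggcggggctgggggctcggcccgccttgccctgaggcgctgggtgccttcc
SCD, chr10:100347033-100347232, plus strand: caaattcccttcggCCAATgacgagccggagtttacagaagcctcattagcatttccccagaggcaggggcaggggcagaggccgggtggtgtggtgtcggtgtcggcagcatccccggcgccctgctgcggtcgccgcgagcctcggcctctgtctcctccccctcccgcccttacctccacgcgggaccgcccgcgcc
SREBF2, chr22:41832905-41833104, plus strand: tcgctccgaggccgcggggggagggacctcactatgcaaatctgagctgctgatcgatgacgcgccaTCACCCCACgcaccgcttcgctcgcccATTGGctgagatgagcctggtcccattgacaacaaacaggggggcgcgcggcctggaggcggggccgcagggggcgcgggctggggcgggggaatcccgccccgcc
INSIG1, chr7:155297678-155297877, plus strand: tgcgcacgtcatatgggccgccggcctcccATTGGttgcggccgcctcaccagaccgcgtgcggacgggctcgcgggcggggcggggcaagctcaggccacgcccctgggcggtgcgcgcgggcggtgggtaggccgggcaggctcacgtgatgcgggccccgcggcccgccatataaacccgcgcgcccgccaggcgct

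FDPS held 3 CCAAT boxes in this stretch and STARD4 held 2, while SCD, SREBF2 and INSIG1 held 1 each, and SCD has another just upstream of it. The gene coordinates listed with the TPM place the start of FDPS at 155308801 and that of STARD4 at 111512567, inside their printed stretches. The FDPS box nearest the window's start thus lies within the gene as listed there. CCAAT on either strand was found in a window of 21 of the 28 members (75.0%), against 43.6% of the 10090 tested genes with a window and 39.7% of all 27305 genes with one. Counted by window, since a gene can have several, it was in 25 of 39 (64.1%) of the members' windows and in 34.6% of all windows. At least 2 such boxes lay in the same window in 14 of the 28 members, against 12.9% of all genes with a window. That share was not computed for tested genes, nor was it adjusted for the number of windows of a gene. By group, 14 of 16 SREBP2-type genes, 5 of 7 SREBP1-type genes and 2 of 5 regulators held CCAAT. The 7 members without it were CYP51A1, ELOVL6, FADS1, INSIG2, PMVK, SCAP and SREBF1. With TPM as deposited, CYP51A1, FADS1 and ELOVL6 among these fell in both lines, while INSIG2, PMVK and SCAP passed the limit in neither. Over the 39 windows of the members, some of which overlap, 43 of 53 boxes (counting as separate the boxes on opposite strands that overlap in IDI1 and NSDHL) had their leftmost base between 200 and 40 bases before the start.

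The GC-box core GGGCGG, which SP1 binds, occurred on either strand in 27 of 28 members (NSDHL being the exception), against 76.9% of tested genes and 48.3% of all genes with a window. The E-box CACGTG occurred in INSIG1, LSS, SC5D and SCAP, 4 of 28, against 12.9% of tested genes and 8.77% of all genes. TCACNCCAC occurred in SREBF2 alone, 1 of 28, against 1.44% of tested genes and 1.39% of all genes, and its absence elsewhere says only that these letters are not in these windows. These matches are letters in the genome and not measurements of binding.

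The first 7 enzymes carry acetyl-CoA through mevalonate to farnesyl diphosphate, and 5 of them fell in both lines. Without short structural RNA genes, ACAT2, MVD and FDPS still fell in both, but HMGCS1 and IDI1 in neither. ACAT2, the cytosolic thiolase that joins acetyl-CoA units (chr6:159762045-159779112, GRCh38), fell furthest of this group in both lines. It measured 116 (shSCR) and 29.2 TPM (shSKP2) in RD, with 73.8 and 22.2 TPM in JR1, changes of -1.95 and -1.69. The 3′ end of ACAT2 overlaps TCP1 on the opposite strand by 615 bases, and TCP1, a chaperonin subunit, changed by -0.30 and -0.27. SOD2, also on the opposite strand, overlaps ACAT2 by 237 bases and changed by -0.18 and -0.90. HMGCS1, which makes HMG-CoA, had 40.4 TPM in the RD control and 18.3 TPM after silencing, against 34.6 and then 16.2 TPM in JR1, changes of -1.10 and -1.05 that lay just past the limit.

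The kinases that follow passed the limit in neither line. MVK, mevalonate kinase, was at 29.1 and 16.8 TPM in RD without and with silencing, and at 26.9 and 17.7 TPM in JR1, changes of -0.76 and -0.58. PMVK, the kinase of the next step, stood at 18.1 TPM in RD shSCR and 16.4 TPM in RD shSKP2, and at 13.3 and 10.8 TPM in the JR1 pair, changes of -0.14 and -0.29. PMVK thus lay near the all-gene median of each line.

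The genes downstream of these kinases fell again. MVD, which decarboxylates the diphosphate of mevalonate, measured 40.5 (shSCR) and 13.0 TPM (shSKP2) in RD, with 36.2 and 12.7 TPM in JR1, changes of -1.57 and -1.44. IDI1, the isomerase of isopentenyl diphosphate, had 34.5 TPM in the RD control and 16.0 TPM after silencing, against 23.2 and then 10.6 TPM in JR1, changes of -1.07 and -1.06. FDPS, farnesyl diphosphate synthase and the member with 3 CCAAT boxes above, was at 148 and 47.5 TPM in RD without and with silencing, and at 109.8 and 38.4 TPM in JR1. Its changes were -1.62 and -1.49, and it was the most abundant of the 7 mevalonate enzymes in every library. FDPS shares 3812 bases with RUSC1-AS1 on the opposite strand, which was at most 9.13 TPM in any library. The median of the 7 was -1.10 in RD and -1.06 in JR1.

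**Figure D2:**
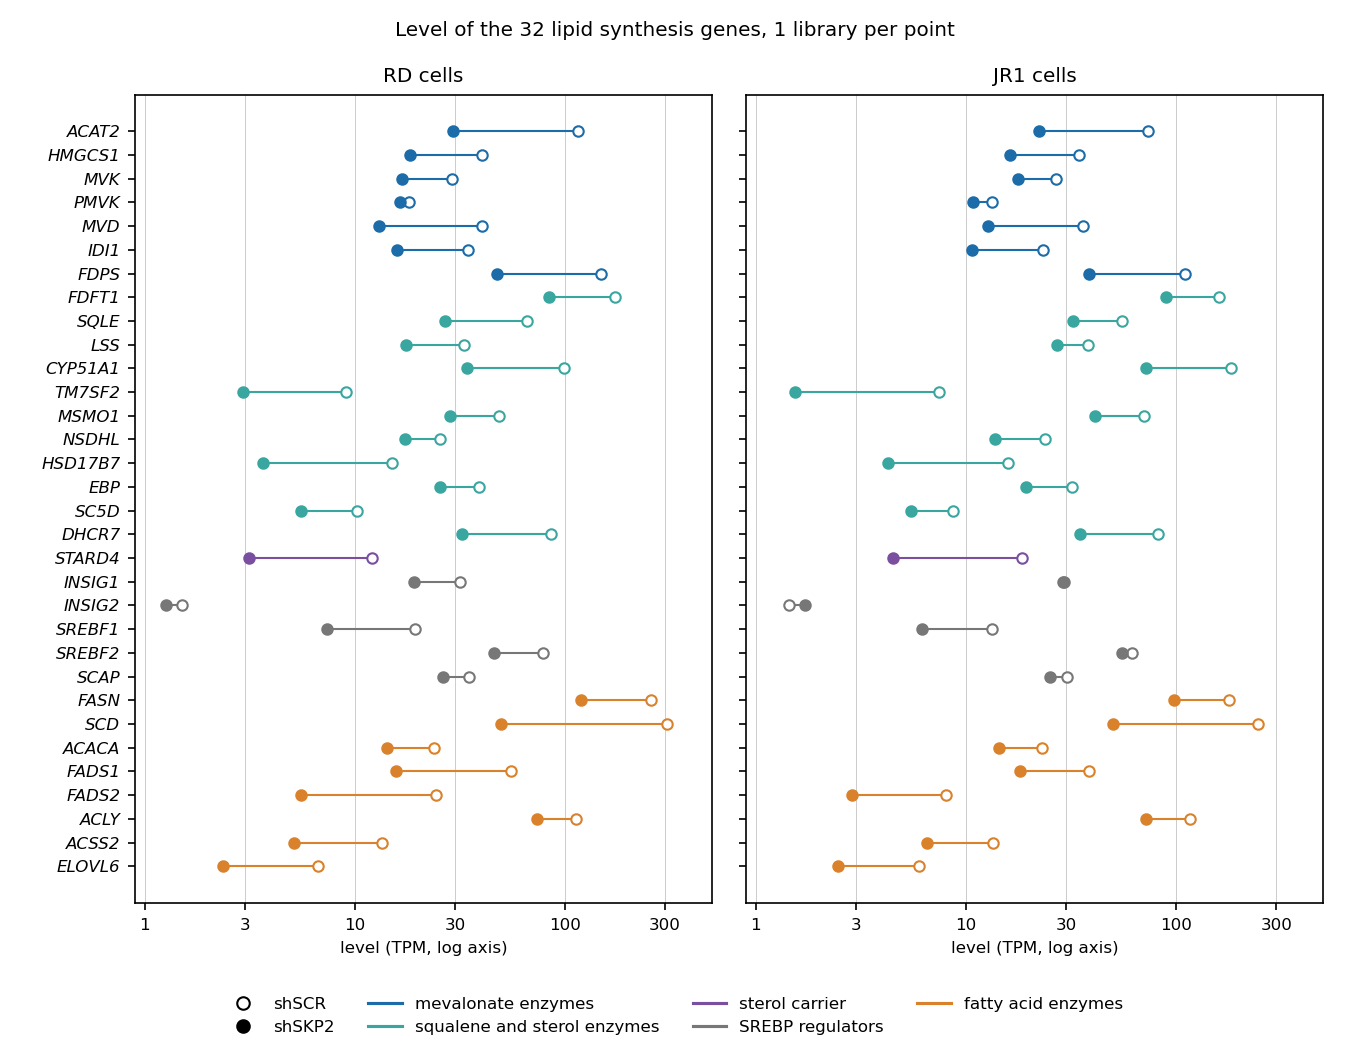
The plot gives the TPM of each of the 32 members in the 4 libraries (log axis), ordered by role, with the shSCR and shSKP2 libraries of each line in different marks. With TPM as deposited, the shSKP2 mark lies below the shSCR mark of its line for every member except INSIG2 in JR1.

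The later sterol pathway takes farnesyl diphosphate to squalene, lanosterol and cholesterol, and all 11 of its enzymes were lower in both lines, 6 of them past the limit in RD and 4 in JR1. FDFT1, squalene synthase, stood at 173 TPM in RD shSCR and 84.2 TPM in RD shSKP2, and at 159.9 and 89.1 TPM in the JR1 pair, changes of -1.03 and -0.84. SQLE, squalene epoxidase and a rate-limiting step, measured 66.3 (shSCR) and 27.0 TPM (shSKP2) in RD, with 55.4 and 32.2 TPM in JR1, changes of -1.27 and -0.76. LSS, which closes the sterol ring to lanosterol, had 33.0 TPM in the RD control and 17.6 TPM after silencing, against 38.1 and then 27.0 TPM in JR1, changes of -0.87 and -0.48. The 3 enzymes that make lanosterol were thus each lower by more in RD than in JR1.

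Demethylation of lanosterol starts with CYP51A1, a cytochrome P450. CYP51A1 was at 99.0 and 34.2 TPM in RD without and with silencing, and at 183 and 71.7 TPM in JR1, changes of -1.50 and -1.34. The sterol reductase TM7SF2 was the scarcest of the 11, with 9.11 and 2.94 TPM in RD shSCR and shSKP2 and 7.41 and 1.54 TPM in JR1, changes of -1.36 and -1.73. At such levels the added 1 TPM compresses the change, and with 0.1 TPM added instead the changes of TM7SF2 were -1.60 and -2.19.

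MSMO1, NSDHL and HSD17B7 act in turn on the methyl groups at carbon 4 of the sterol ring. HSD17B7, the ketoreductase of this complex, stood at 15.1 TPM in RD shSCR and 3.67 TPM in RD shSKP2, and at 15.9 and 4.24 TPM in the JR1 pair. Its changes of -1.79 and -1.69 were larger than those of its partners. MSMO1, the oxidase, measured 48.5 (shSCR) and 28.3 TPM (shSKP2) in RD, with 70.4 and 41.0 TPM in JR1, changes of -0.76 and -0.77. NSDHL, the decarboxylating dehydrogenase, had 25.3 TPM in the RD control and 17.4 TPM after silencing, against 23.7 and then 13.7 TPM in JR1, changes of -0.52 and -0.75. HSD17B7 has a near-identical pseudogene, HSD17B7P2, listed at 1.64 and 0.32 TPM in RD and at 1.00 and 0.22 TPM in JR1, so reads that match both copies could be divided between them.

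The last steps differed in size. EBP, which shifts a double bond in the ring, was at 38.9 and 25.6 TPM in RD without and with silencing, and at 32.05 and 19.3 TPM in JR1, changes of -0.59 and -0.70. SC5D, the desaturase that follows, stood at 10.2 TPM in RD shSCR and 5.54 TPM in RD shSKP2, and at 8.64 and 5.49 TPM in the JR1 pair, changes of -0.78 and -0.57. DHCR7, the reductase that completes cholesterol, measured 85.5 (shSCR) and 32.5 TPM (shSKP2) in RD, with 82.4 and 34.7 TPM in JR1. DHCR7 therefore fell in both lines, with changes of -1.37 and -1.22, while EBP and SC5D did not reach the limit in either. Without short structural RNA genes, DHCR7 lay just short of the limit in both lines (-0.97 and -0.98).

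STARD4, a soluble protein that carries cholesterol between membranes, fell in both lines. It had 12.1 TPM in the RD control and 3.13 TPM after silencing, against 18.5 and then 4.48 TPM in JR1, changes of -1.67 and -1.83. Among the SREBP2-type genes as a whole, the median change was -1.10 in RD, where 12 of 19 fell, and -1.05 in JR1, where 10 fell. Their summed level was at 1043 and 439 TPM in RD without and with silencing, and at 1013 and 473 TPM in JR1.

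Fatty acid synthesis held the member that moved furthest. SCD (chr10:100347233-100364826, GRCh38), the desaturase that turns saturated into monounsaturated fatty acids, was at 307 TPM in RD shSCR and 49.5 TPM in RD shSKP2, and at 245 and 50.1 TPM in JR1. It thus kept 16.1% of its control level in RD and 20.5% in JR1, with changes of -2.61 and -2.26. Ordered from the lowest change of the 12985 tested genes, SCD stood at place 27 in RD and place 83 in JR1. SCD was the most abundant member in both shSCR libraries, whereas FASN was the most abundant in both shSKP2 libraries.

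The enzymes that supply carbon and assemble palmitate moved less. ACLY, which releases acetyl-CoA from citrate, stood at 113 TPM in RD shSCR and 74.0 TPM in RD shSKP2, and at 116 and 71.6 TPM in the JR1 pair, changes of -0.61 and -0.69. ACSS2, which makes acetyl-CoA from acetate, measured 13.4 (shSCR) and 5.12 TPM (shSKP2) in RD, with 13.4 and 6.49 TPM in JR1, changes of -1.24 and -0.94. Between these suppliers, ACSS2 was thus lower by more in each line. ACACA, the carboxylase that commits acetyl-CoA to fatty acids, had 23.7 TPM in the RD control and 14.3 TPM after silencing, against 23.1 and then 14.4 TPM in JR1, changes of -0.69 and -0.64. FASN, the synthase that makes palmitate, was at 256 and 119.9 TPM in RD without and with silencing, and at 178 and 97.3 TPM in JR1, changes of -1.09 and -0.87.

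ELOVL6, which lengthens palmitate, and the desaturases of polyunsaturated fatty acids all fell in both lines with TPM as deposited. Without short structural RNA genes, FADS2 still fell in both, FADS1 in RD only and ELOVL6 in neither. ELOVL6 stood at 6.72 TPM in RD shSCR and 2.36 TPM in RD shSKP2, and at 5.99 and 2.46 TPM in the JR1 pair, changes of -1.20 and -1.01, the latter at the limit. FADS1, the delta-5 desaturase, measured 55.3 (shSCR) and 15.7 TPM (shSKP2) in RD, with 38.7 and 18.1 TPM in JR1, changes of -1.75 and -1.06. FADS2, the delta-6 desaturase, had 24.3 TPM in the RD control and 5.57 TPM after silencing, against 8.05 and then 2.87 TPM in JR1, changes of -1.94 and -1.23. Both desaturases moved by more in RD. FADS1 (chr11:61799627-61817003) and FADS2 (chr11:61816203-61867354) lie on opposite strands and overlap by 801 bases at their starts, and the strand setting of the counting is not given in the sources used here. SCD and FADS2 fell further in each line than ACLY, ACACA, FASN, ACSS2 or ELOVL6.

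Set against each other, the SREBP2-type and SREBP1-type genes did not part consistently. The SREBP1-type median was -1.22 in RD and -0.98 in JR1, with 6 and 4 of 8 genes past the limit. The SREBP2-type median minus the SREBP1-type median was 0.12 in RD, where the fatty acid genes were the lower group. In JR1 it was -0.07, a difference within 0.1 that sets neither group clearly lower. The SREBP1-type genes summed to 799.9 and 286 TPM in RD without and with silencing, and to 628 and 263 TPM in JR1. With 0.1 TPM added the difference was 0.29 in RD and -0.03 in JR1, and without short structural RNA genes 0.25 and -0.03. Changes within a group ran from -1.95 to -0.14 for the SREBP2-type genes and from -2.61 to -0.61 for the SREBP1-type genes in RD. The difference between the groups was not tested. Adding INSIG1 and SREBF2 to the first group and SREBF1 to the second turned the JR1 difference to 0.15.

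The regulators were the group that moved least and the one in which the lines were least alike, with medians of -0.70 (RD) and -0.15 (JR1). SREBF1, which encodes SREBP1, stood at 19.4 TPM in RD shSCR and 7.38 TPM in RD shSKP2, and at 13.2 and 6.19 TPM in the JR1 pair, changes of -1.28 and -0.98 that put RD past the limit and JR1 just short of it. SREBF2, which encodes SREBP2, measured 79.1 (shSCR) and 46.2 TPM (shSKP2) in RD, with 61.7 and 55.5 TPM in JR1, changes of -0.76 and -0.15. SREBF2 was more abundant than SREBF1 in every library, by 79.1 against 19.4 TPM in RD shSCR and by 55.5 against 6.19 TPM in JR1 shSKP2. Gene-level TPM does not separate the SREBP1a and SREBP1c transcripts.

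INSIG1 and INSIG2 encode the proteins that retain SREBPs in the endoplasmic reticulum. INSIG1 went from 31.7 to 19.2 TPM in RD, a change of -0.70, and was at 29.4 and 29.0 TPM in JR1, a change of -0.02. INSIG2 was low throughout, at 1.5 and 1.26 TPM in RD and at 1.44 and 1.71 TPM in JR1, and in JR1 was the only member above its control with TPM as deposited. SCAP, the escort and sterol sensor of the SREBPs, had 34.8 TPM in the RD control and 26.4 TPM after silencing, against 30.4 and then 25.1 TPM in JR1, changes of -0.39 and -0.27. The changes of SCAP were thus near the all-gene median. SREBF2 and INSIG1, whose promoters are printed above beside those of FDPS, STARD4 and SCD, had opposite signs in the lines once the all-gene median was taken off. The values were -0.49 and 0.06 for SREBF2, within 0.1 of 0 in JR1, and -0.43 and 0.20 for INSIG1.

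The changes of the members in the lines went together. Pearson's r of the RD and JR1 changes over the 32 genes was 0.89 and Spearman's rho 0.88, and Pearson's r over all 12985 tested genes was 0.62. These are descriptions across genes, which are not independent replicates, and all points of a line share the same pair of libraries. The change was lower in RD than in JR1 for 25 of the 32 members, and for 22 of them after the all-gene median of each line was taken off, where 57.9% and 50.9% of all tested genes were lower in RD. Without short structural RNA genes it was lower in RD for 17 members, and for 39.4% of the genes then tested. TM7SF2 and STARD4 were among the exceptions, with -1.36 and -1.67 in RD and -1.73 and -1.83 in JR1.

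**Figure D3:**
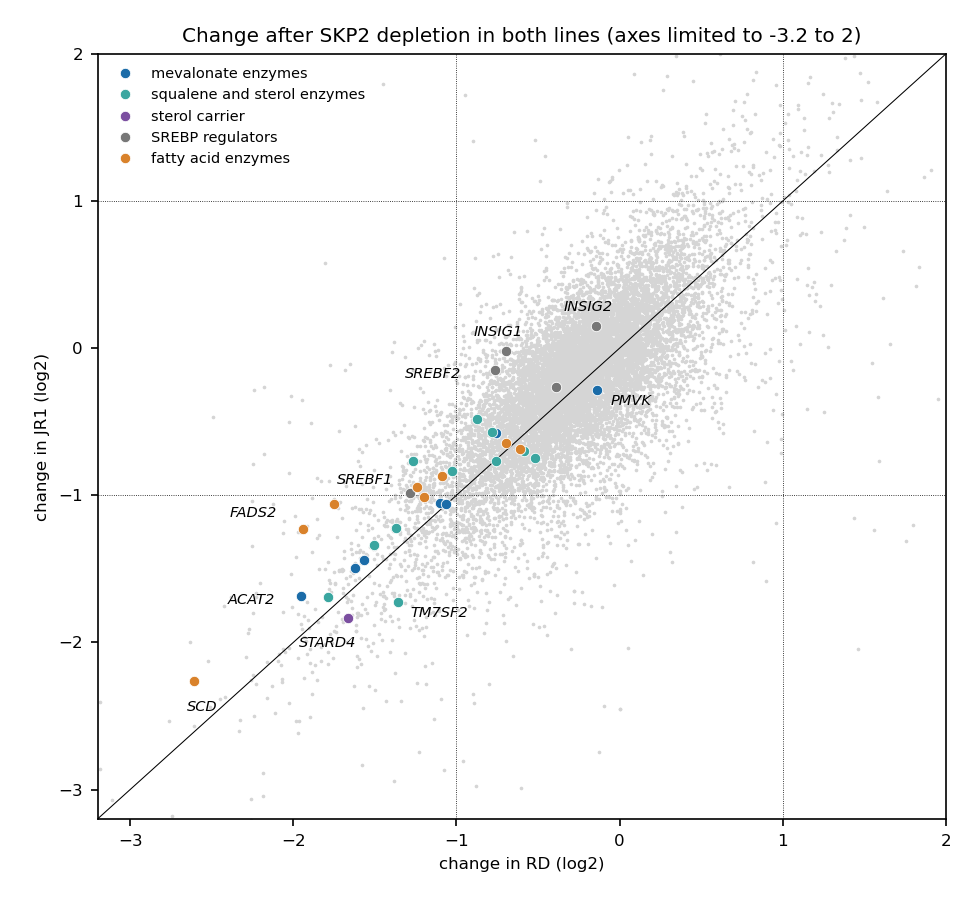
Each point is a gene, placed by its log2 change (TPM + 1) in RD on the x axis and in JR1 on the y axis, with the members coloured by role, the other tested genes in grey (those beyond the axes not drawn), dotted lines at 1 and -1 and a line of equal change. The members form a band in the lower left (Pearson's r 0.89 over 32 genes), with SCD at its far end (-2.61 and -2.26) and INSIG1, INSIG2 and SREBF2 near 0 in JR1.

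In the shSCR libraries, 26 of the 32 members were higher in RD than in JR1, and so were 71.4% of all tested genes. Without short structural RNA genes, whose share was lower in RD shSCR, 10 of the 32 were higher in RD, and 46.5% of the genes then tested. On the deposited scale the difference was within 0.5 (log2) for 23 members, and 1 member passed the limit upwards and none downwards, where 6.5% of all tested genes lay at least 1 above JR1 and 3.45% at least 1 below. That member was FADS2, at 24.3 TPM in RD and 8.05 TPM in JR1, a difference of 1.48 (1.25 without structural RNA genes). CYP51A1 lay furthest the other way, at 99.0 TPM in RD and 183 TPM in JR1, a difference of -0.88 (-1.19 without structural RNA genes, past the limit). In shSKP2, 15 of 32 members were higher in RD. The share of all tested genes was not computed for this count or for the 23 members within 0.5, so neither sets the members apart. The lines differ in origin and in much besides SKP2, and with 1 library each a line difference and a library difference cannot be told apart.

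Genes next to these pathways were read from lists of related function. For comparison, 7.37% of all tested genes fell in RD and 9.05% in JR1, and 3.46% and 7.49% without short structural RNA genes. Of 9 other genes of SREBP processing, MBTPS1, the Golgi protease that makes the first cut in SREBPs, was the lowest in both lines. MBTPS1 was at 47.0 and 17.4 TPM in RD without and with silencing, and at 29.6 and 11.02 TPM in JR1, changes of -1.38 and -1.35, and it was the only gene of this list to fall in both, although without short structural RNA genes it was at -0.995 in RD and no gene of the list then fell there. SPRING1, which licenses that protease, was the highest of the list in both lines, with changes of 0.38 and 0.55. The median of the list was -0.17 in RD and -0.07 in JR1, close to that of all tested genes, with 2 falling in RD (ERLIN1 being the other, at -1.14) and 1 in JR1.

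Of 24 other genes of fatty acid synthesis, elongation and activation, 19 were tested, with medians of -0.61 (RD) and -0.38 (JR1), and 3 and 2 of them fell. SCD5, a second stearoyl-CoA desaturase, stood at 14.5 TPM in RD shSCR and 5.80 TPM in RD shSKP2, and at 17.1 and 3.87 TPM in the JR1 pair, changes of -1.19 and -1.90. SLC25A1, the carrier that exports citrate from mitochondria, measured 60.6 (shSCR) and 21.1 TPM (shSKP2) in RD, with 52.8 and 22.96 TPM in JR1, changes of -1.48 and -1.17. SCD5 and SLC25A1 were the tested genes of this list that fell in both lines, but without short structural RNA genes the list had 1 gene past the limit in each line, SLC25A1 in RD (-1.09) and SCD5 in JR1 (-1.81). On the deposited scale ACSL1 (0.04 in RD) and HACD2 (0.23 in JR1) were the highest.

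Lists of genes that use the products of these pathways had medians nearer the all-gene median than the synthesis genes had. Of 19 genes of glycerolipid synthesis and storage 18 were tested, with medians of -0.25 in RD and -0.18 in JR1. None of the 18 fell in RD and 1 fell in JR1, which was PNPLA3, a lipid droplet protein, at -0.62 in RD and -1.51 in JR1, and the highest were GPAT3 in RD (0.40) and AGPAT5 in JR1 (0.93). The 16 genes that use isoprenoids, for prenylation, dolichol and ubiquinone, had medians of -0.35 and -0.28, with DPAGT1 lowest in RD (-1.16), PDSS2 lowest in JR1 (-0.74) and the protease RCE1 highest in both (0.19 and 0.50). Of 19 genes of sterol handling 16 were tested, with medians of -0.40 and -0.41, and 2 fell in each line while none rose in RD and 1 rose in JR1. Without short structural RNA genes 1 fell in RD and 4 in JR1 (CH25H, SCARB1, CYP27A1 and ABCG1). The JR1 median of the list was then -0.30, against 0.01 for all genes. CH25H and ABCG1 were too low to be tested with TPM as deposited. LPCAT3, which builds polyunsaturated phospholipids, was the gene of this list to fall in both lines (-1.15 and -1.02), a call lost in both without short structural RNA genes (-0.85 and -0.83). NR1H3, the sterol receptor LXR-alpha, was lowest in RD (-1.72), SCARB1, the HDL receptor, was lowest in JR1 (-1.53), and NCEH1, a cholesteryl ester hydrolase, was highest in both (0.79 and 1.19).

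Other measures moved between the same libraries. With TPM as deposited, 5 of the 6 myogenic markers were above control in RD and 4 in JR1. On that scale 75.0% of all tested genes were below control in RD and 68.9% in JR1. In JR1 DES, a muscle intermediate filament, was at 51.3 and then 36.0 TPM (-0.50). MYOD1 changed by 0.11 in RD and 0.38 in JR1. MYOG, a late myogenic factor, had 31.6 TPM in the RD control and 58.4 TPM after silencing, against 54.0 and then 107 TPM in JR1, and the proliferation marker MKI67 was at 50.9 and 32.9 TPM in RD without and with silencing, and at 14.6 and 8.21 TPM in JR1. The part of the shift in muscle genes, of proliferation or of the number of cells in each state in the lower levels of the synthesis genes was not tested. Loss of SKP2 and infection with this particular shRNA cannot be told apart either, since each line has 1 shRNA.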

How the data were processed

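Poly-A RNA of RD and JR1 cells infected with shSCR or shSKP2 lentivirus was sequenced as pairs of 150 bases from directional libraries, 1 library for each line and condition. The authors mapped reads on GRCh38 by STAR 2.7.9a, and RSEM 1.3.2 then gave the TPM that were deposited for each gene, to 2 decimals. The annotation release and the strand setting of the counting are not given in the sources used here. TPM keeps no depth, so no counting error could be given.

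Groups followed the sample labels. Changes were computed as log2((TPM + 1) in shSKP2 / (TPM + 1) in shSCR) within a line, for the 12985 genes that averaged 1 TPM or more across the libraries, and those of 1 or more in size were counted. Within a line no test was run, having 1 library per group. A limma 3.58.1 fit (R 4.3.3) with a mean-variance trend, the line as a block and 1 residual degree of freedom, added after seeing the data, tested both lines together, with p-values adjusted by Benjamini-Hochberg over all tested genes. Lists were described by counts and medians beside all tested genes. All 32 members are named, and of each list of related genes the highest and lowest in each line and those past the limit in both. The members and lists were chosen with earlier results of these data known. In the alternatives, 0.1 TPM was added, changes were centred on the median of all tested genes, TPM was rescaled without 1069 genes of short structural RNA, other minimum levels or a 1.5-fold limit were used, or regulators were added to the lists. A single value was taken as unmoved within 0.1 on the log2 scale. Promoter windows were RefSeq sequences on GRCh38.p14. The calculation was tested on simulated data. Python 3.11.15 with pandas 2.3.3 and numpy 2.4.6 was used.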

Additional observations from a re-analysis of the deposited data

Results flagged for a closer look

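For 4 regulators or enzymes the lines had opposite signs on some scales but not on all. None of these differences was tested, since each line has 1 library per condition. INSIG2 lay below its control in RD (-0.15) and above it in JR1 (0.15), a difference of -0.297 at levels of 1.26 to 1.71 TPM, but it was above 0 in both lines after centring (0.12 and 0.37) and without short structural RNA genes (0.13 and 0.43). Relative to the median change of all tested genes, INSIG1 was at -0.43 (RD) and 0.20 (JR1), which differ by -0.623. SREBF2 was at -0.49 and 0.06 on the same relative scale, a difference of -0.557. PMVK went the other way, at 0.13 (RD) and -0.07 (JR1), which differ by 0.206. The JR1 values of SREBF2 and PMVK on this scale lay within 0.1 of 0. On the scale of TPM as deposited, INSIG1, SREBF2 and PMVK were each below control in both lines. Without short structural RNA genes and without centring, the signs were opposite for INSIG1 (-0.30 and 0.24), SREBF2 (-0.35 and 0.11) and PMVK (0.27 and -0.04).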

How the results depend on the processing

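The medians of the SREBP2-type and SREBP1-type genes stayed below 0 in both lines under each alternative tried, while their size moved with the scale. The number of members that fell went from 19 to 12 in RD after centring and to 10 without short structural RNA genes, and in JR1 from 14 to 9 without them and to 24 at the 1.5-fold limit. The SREBP2-type median moved in RD to -0.83 after centring and -0.71 without structural RNA genes, and in JR1 to -0.83 and -0.82, and to -0.84 with INSIG1 and SREBF2 added. The SREBP1-type median moved in RD to -1.42 with 0.1 TPM added, -0.95 after centring and -0.96 without structural RNA genes, and in JR1 to -0.76 and -0.79 under the latter pair. The SREBP2-type minus SREBP1-type difference moved in RD to 0.29 with 0.1 TPM added and 0.25 without structural RNA genes, and in JR1 turned from -0.07 to 0.15 with the regulators added. Members above the all-gene median in RD numbered 2, and 0 with all genes above 0 TPM and 1 at a minimum of 5 TPM. Of the 64 single changes, 63 were below 0 with 0.1 TPM added, 59 after centring and 58 without structural RNA genes. With the line as a block, each line giving a pair, limma called 27 members lower at an adjusted p under 0.05, and 27 with 0.1 TPM added, 20 after centring and 20 without structural RNA genes. Leaving out a library would leave a line without a comparison. Unknown depth and 1 library per group limit every value, most of all for INSIG2 and the other genes of a few TPM.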

Other observations

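MMAB, which encodes an enzyme of vitamin B12 metabolism, lies on the opposite strand to MVK, and the genes overlap by 120 bases (MMAB at chr12:109553715-109573580, MVK at chr12:109573461-109598125, GRCh38). MMAB stood at 8.94 TPM in RD shSCR and 3.20 TPM in RD shSKP2, and at 10.4 and 3.29 TPM in the JR1 pair, changes of -1.24 and -1.41. It fell in both lines, whereas MVK was at -0.76 and -0.58 and passed the limit in neither. MMAB was chosen after its values were seen, and because the strand setting of the counting is not given, reads from the shared bases could have been counted for either gene.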
